A study of Mus musculus with 12 samples.

Results

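RNA of mouse kidney at stage E13.5 was compared with RNA of kidney at stage E11.5 (stages are named by days after conception), and the first nephrons form between them. Both arrays held total RNA of whole kidneys from wild-type embryos of the outbred ICR strain, taken without the ureter, and both tissues were fresh and uncultured. These are 2 of the 12 arrays of a series that also holds kidneys at E15.5, E17.5 and the day of birth (P0), an E11.5 kidney cultured for 7 days, and kidney organoids measured before and after 7 days of culture (n = 3 each). The organoids combined stromal progenitors taken from E11.5 kidney with nephron progenitor and ureteric bud cells that had been derived in vitro from mouse stem cells. Each kidney stage has 1 array, so no difference between stages has a replicate check or a p-value, and stage cannot be told apart from anything else that differed between the 2 specimens. The labels do not say how many embryos or litters a specimen pooled.

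Of 27286 gene symbols on the array, 19206 were measured, meaning that their probe was well above background on at least 1 of the 2 arrays. Both arrays measured 17611 of them, the E13.5 array alone measured 537 and the E11.5 array alone measured 1058. A further 8077 symbols were well above background on neither array and 3 lacked a value. At the edge of this filter, the brighter array's signal was as low as 0.0299 for a gene inside it and as high as 0.0410 for a gene outside it. Levels are given as relative signal, the processed signal of a probe divided by the 75th percentile of its array, and differences are log2 values of E13.5 minus E11.5. Where the dimmer array was not well above background, a fold is a lower bound, set against the dimmest signal that array measured or the probe's own signal, whichever was higher. Counts past 2-fold rest on the difference itself, so a counted gene can have a bound below 2-fold.

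The kidney grows as the ureteric bud, an epithelial tube, branches into a mesenchyme that expresses Six2. Signals from the bud keep part of this mesenchyme as progenitors, and let another part condense into pretubular aggregates, which turn into renal vesicles and then into S-shaped bodies. Wnt4 drives that conversion, Notch signalling and the Irx transcription factors divide the tube into segments, and podocytes, proximal tubule, loop and distal tubule differentiate from it, while the trailing stalk of the bud becomes collecting duct.

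Across all genes measured, 1135 were at least 2-fold higher at E13.5 (5.91%) and 1461 were at least 2-fold lower (7.61%), with a median difference of 0.07. With arrays scaled to their medians instead, 1783 were higher and 1080 lower, so that the higher genes made up 62.3% of those past 2-fold, against 43.7% here. At least 4-fold differences were seen in 405 genes upward and 575 downward, and 74.4% of genes lay within 1.5-fold. The share past 2-fold in either direction was 13.52%, against 2.87% to 4.24% between organoid arrays of the same group, which are the only replicates in the series. Repeated spots of a probe within an array had a median SD of 0.0597 (E13.5) and 0.0685 (E11.5) on the log2 scale. Of 366 genes past 2-fold that had a further probe above background, 84.2% had the same sign on every further probe and 52.7% were past 2-fold on every one.

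**Figure D1:**
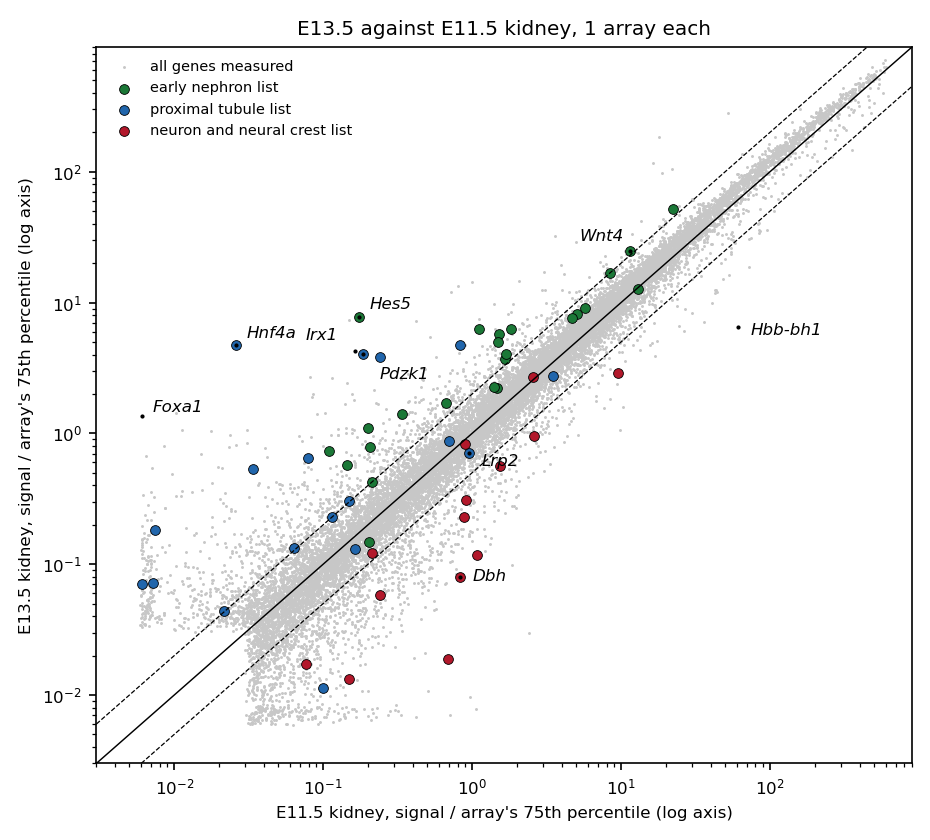
Relative signal of each gene measured, at E13.5 (vertical) and E11.5 (horizontal), both on log axes; each point is 1 gene, the solid line marks equal signal and the dashed lines a 2-fold difference. Early nephron genes (green) lie on or above the equal line with 2 exceptions, neural genes (red) mostly lie below it, and Hnf4a and Foxa1 stand at the far left because the E11.5 array did not measure them well above background.

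The genes that were lower had another make-up than those that were higher. Of 15616 protein-coding genes, 6.39% were at least 2-fold higher and 4.49% were at least 2-fold lower, while of the other 3590 symbols, 3.82% were higher and 21.2% lower. Counted by probe instead of by gene, 5.55% of 21809 protein-coding probes were lower and 5.78% were higher. Probes of long noncoding RNAs were lower in 23.0% of 875 cases. The probes that the design names by coordinates, many of them intergenic transcripts, were lower in 22.2% of 7240 cases. The nuclear RNA Malat1, which stays at speckles in the nucleus, had a relative signal of 0.165 at E13.5 and 1.21 at E11.5. Among 7 noncoding RNAs looked up after values had been seen, no array of the 12 in the series was lower than E13.5 for Malat1, Neat1, Kcnq1ot1, Airn and Dnm3os. The other two did not share this: 4 arrays were lower for Meg3 (2.31 at E13.5 and 4.03 at E11.5) and 2 for Mir17hg (0.436 and 1.67). At the next stage the same classes were higher again: 18.2% of 924 long noncoding probes and 18.3% of 7724 coordinate-named probes were at least 2-fold higher at E15.5 than at E13.5, against 7.75% of 22429 protein-coding probes. The cause of this was not tested. The lower genes described below are protein-coding unless another class is named.

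**Figure D2:**
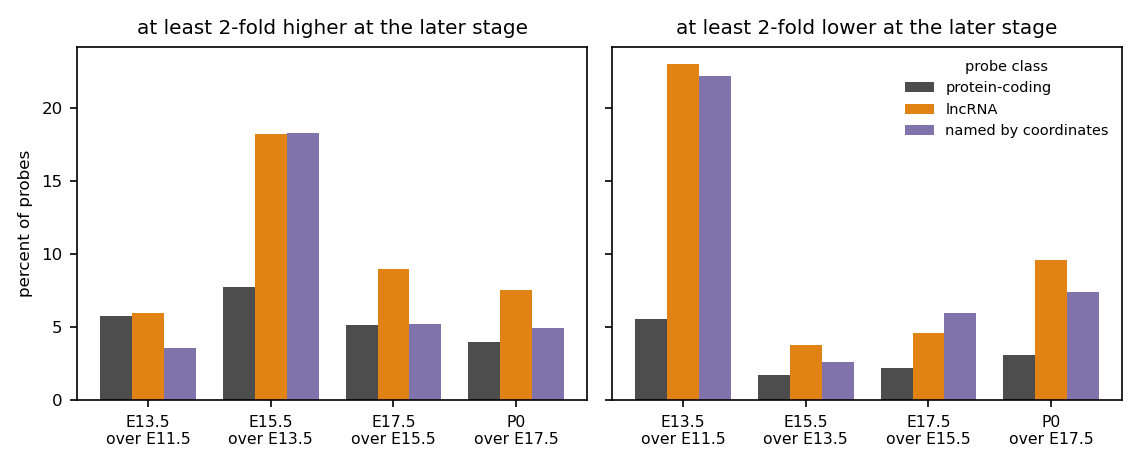
Percent of probes at least 2-fold higher (left) or lower (right) at the later of each pair of neighbouring stages, 1 array per stage, for protein-coding probes, long noncoding RNA probes and probes named by coordinates. The E13.5 over E11.5 step has the tallest bars for noncoding probes on the lower side, at 23.0% and 22.2%, and the step from E13.5 to E15.5 has the tallest on the higher side.

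**Figure D3:**
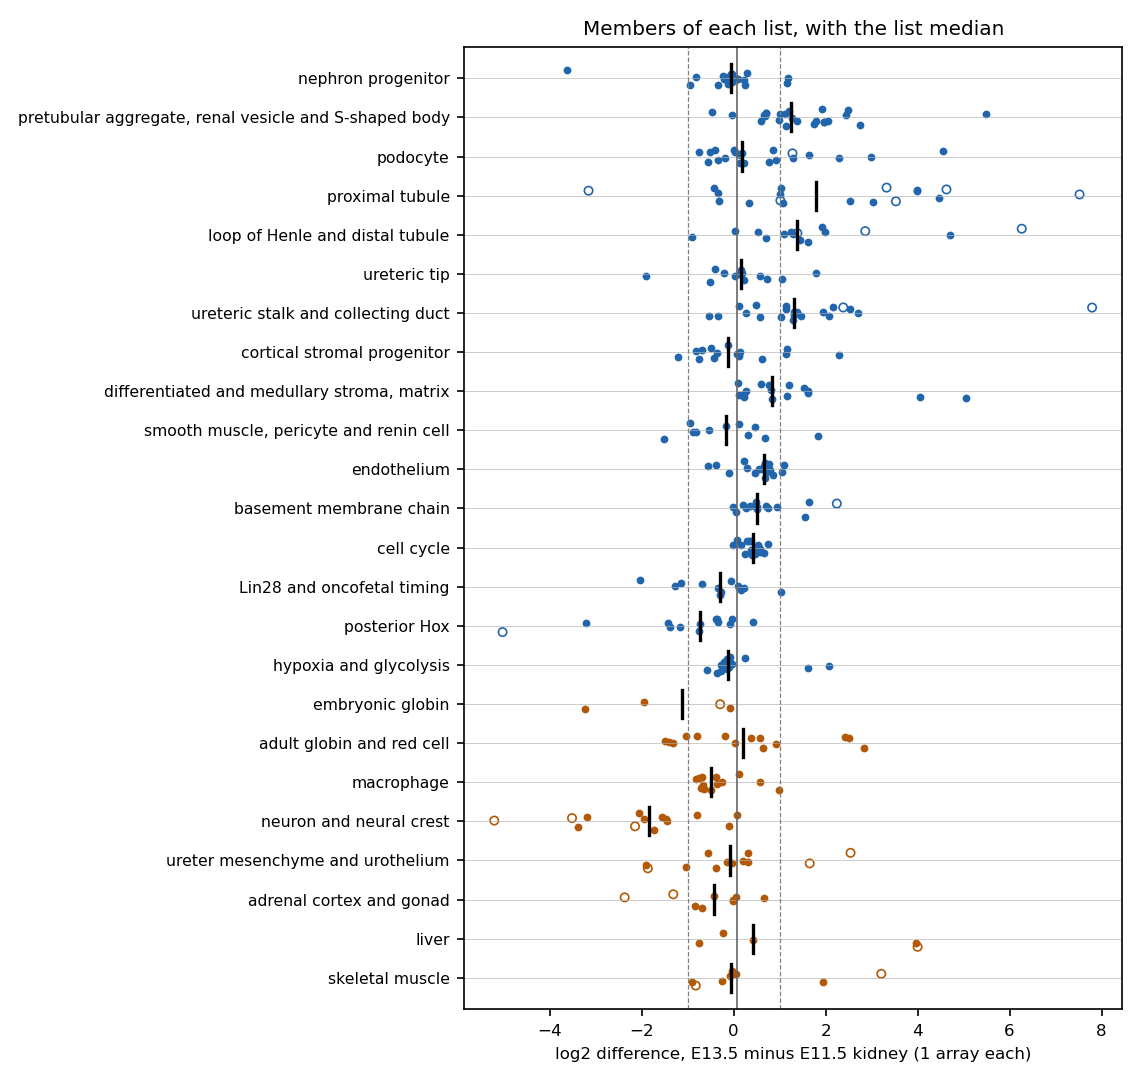
Log2 difference, E13.5 minus E11.5, of every measured member of 24 marker lists; black bars are list medians, open circles are genes that 1 of the 2 arrays did not measure well above background, blue lists are kidney cell types and processes and brown lists are other cells. Dashed lines mark 2-fold and the grey line the median of all genes; the neural list lies mostly left of the lower dashed line, and the early nephron, proximal tubule, loop and distal, and collecting duct lists have medians right of the upper one.

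Nephron progenitor genes stayed close to their E11.5 level. Of 18 listed, all were measured, 2 were at least 2-fold higher, 1 was at least 2-fold lower and 15 lay within 2-fold, and the list median was -0.05. Six2, the transcription factor that keeps progenitors from differentiating, had a relative signal of 52.4 at E13.5 and 66.2 at E11.5, a difference of -0.34. Its 2 other probes above background gave -2.32 and -0.41, so the size of its difference depended on the probe. Cited1, a transcriptional coregulator of the least committed progenitors, was 2.23-fold higher, at 30.1 and 13.53. Tmem100, a membrane protein of the same cells, was also higher, at 0.611 and 0.268. Osr1 and Meox1, also early mesenchymal transcription factors, were lower by less than 2-fold (-0.82 and -0.96), whereas Wt1 (-0.12), Eya1 (0.29) and Gdnf (0.24), the bud's growth signal, differed little.

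The genes of the forming nephron were higher together. All 24 listed genes of the pretubular aggregate, renal vesicle and S-shaped body were measured, 15 were at least 2-fold higher, none was at least 2-fold lower, and the median difference was 1.24. Wnt4, the signal that starts the conversion, had 24.7 at E13.5 and 11.47 at E11.5, and its second probe also lay past 2-fold (1.31). Lhx1, a transcription factor of the renal vesicle, was 3.81-fold higher (5.77 and 1.51), Pax8 differed by 1.14, and the cyclin Ccnd1 by 1.21. Fgf8, which nascent nephrons need to survive, differed by 0.59 and so stayed within 2-fold. The exceptions to the upward direction were Mecom (-0.47) and Sfrp2 (-0.04).

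The Notch genes gave the steepest difference on this list. Hes5, a transcriptional repressor switched on by Notch receptors, had a relative signal of 7.73 at E13.5 and 0.173 at E11.5, a 44.5-fold difference. The ligand Dll1 was 4.16-fold higher (1.40 and 0.337), the ligand Jag1 had 6.27 and 1.82, and the glycosyltransferase Lfng, which tunes how receptors answer their ligands, was 6.72-fold higher (0.737 and 0.110). Heyl (1.75) and, from outside the list, the feedback inhibitor Nrarp (1.70) were higher as well, and Hey1 stood at 0.99. Not every target or receptor followed: Hes1 differed by -0.01, the receptor Notch2 by -0.13 and Notch3 by -0.82. The brightest Notch1 probe was lower (-1.85) while its other probe was higher (0.84), so no direction is given for it. Nrarp, Hes1 and the receptors were looked up after the values of the list had been seen.

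DNA that Notch acts on through the factor RBPJ carries the letters GTGGGAA, and the upstream stretches of Hes5 and Lfng, the 2 steepest of the list, are shown because both hold it. The 250 bases before the annotated start come from RefSeq on build GRCm38.p6, plus strand, with GTGGGAA or its reverse complement in capitals.
Hes5, chr4:154960673-154960922: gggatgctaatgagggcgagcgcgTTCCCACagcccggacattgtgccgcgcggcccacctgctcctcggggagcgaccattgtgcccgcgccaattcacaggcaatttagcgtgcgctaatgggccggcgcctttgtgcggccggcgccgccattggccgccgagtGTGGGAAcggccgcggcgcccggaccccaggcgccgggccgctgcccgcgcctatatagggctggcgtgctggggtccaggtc
Lfng, chr5:140607091-140607340: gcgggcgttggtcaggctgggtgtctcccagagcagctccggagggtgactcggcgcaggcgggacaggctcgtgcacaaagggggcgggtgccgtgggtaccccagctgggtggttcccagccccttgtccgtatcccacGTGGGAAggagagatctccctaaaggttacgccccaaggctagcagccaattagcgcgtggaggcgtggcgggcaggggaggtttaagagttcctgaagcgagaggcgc
The match in Lfng begins 109 bases before the start, and the matches in Hes5 begin 226 and 83 bases before it. The span annotated for the Hes5 gene begins earlier than this start, at base 154960626, so the printed Hes5 stretch lies inside that span. On either strand, the letters occurred in 5.42% of 32851 RefSeq promoter windows of 250 bases, and in 2 of the 22 windows of early nephron genes (15 of 24 genes had a window). The motif and the windows were chosen after the expression values were known, and CAAAGTCCA, CCAAT and TATAAA were searched as well (0.384%, 33.8% and 12.4% of all windows), with no overlap between different motifs in the stretches printed. A match of letters is a description and not a bound site.

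Other early nephron genes past 2-fold included Osr2 (1.09 at E13.5 and 0.200 at E11.5), a transcription factor related to Osr1, and Papss2 (6.24 and 1.12), which makes the sulfate donor of the cell. The cadherin Cdh6 of the early proximal domain had 1.71 and 0.664. Over the 5 kidney stages, 12 of the 24 genes had their highest signal at E13.5, 6 at E15.5, and 2 each at E11.5, E17.5 and P0. In order of stage, Hes5 stood at 0.173, 7.73, 5.68, 3.38 and 1.92, and Lhx1 at 1.51, 5.77, 5.07, 3.07 and 3.29. Papss2 differed from these, with 1.12, 6.24, 7.41, 10.1 and 19.8.

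Some podocyte genes were higher at E13.5 and most stayed within 2-fold. Of 22 listed, 21 were measured (Col4a3 was above background on neither array), 6 were at least 2-fold higher, none was at least 2-fold lower, and the median was 0.18. Clic5, a protein at the base of foot processes, was 7.93-fold higher (0.409 at E13.5 and 0.0516 at E11.5), the receptor phosphatase Ptpro 0.547 and 0.111, and the surface sialoprotein Podxl 0.884 and 0.361. Nphs1, encoding nephrin, had 0.0790 and was not well above background at E11.5, which makes it at least 2.43-fold higher. Col4a4, a chain of the mature glomerular basement membrane, differed by 1.64 on its brightest probe and by -0.06 on the other. The podocyte regulators Tcf21 (0.14) and Foxc2 (-0.40) stayed within 2-fold. So did the foot process genes Synpo (-0.75, and 0.19 on its other probe), Magi2 (0.21), Kirrel (0.18) and Plce1 (-0.34), and Thsd7a (0.02). At E15.5 Clic5 had 2.41 and Ptpro 2.63, above their E13.5 levels.

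**Figure D4:**
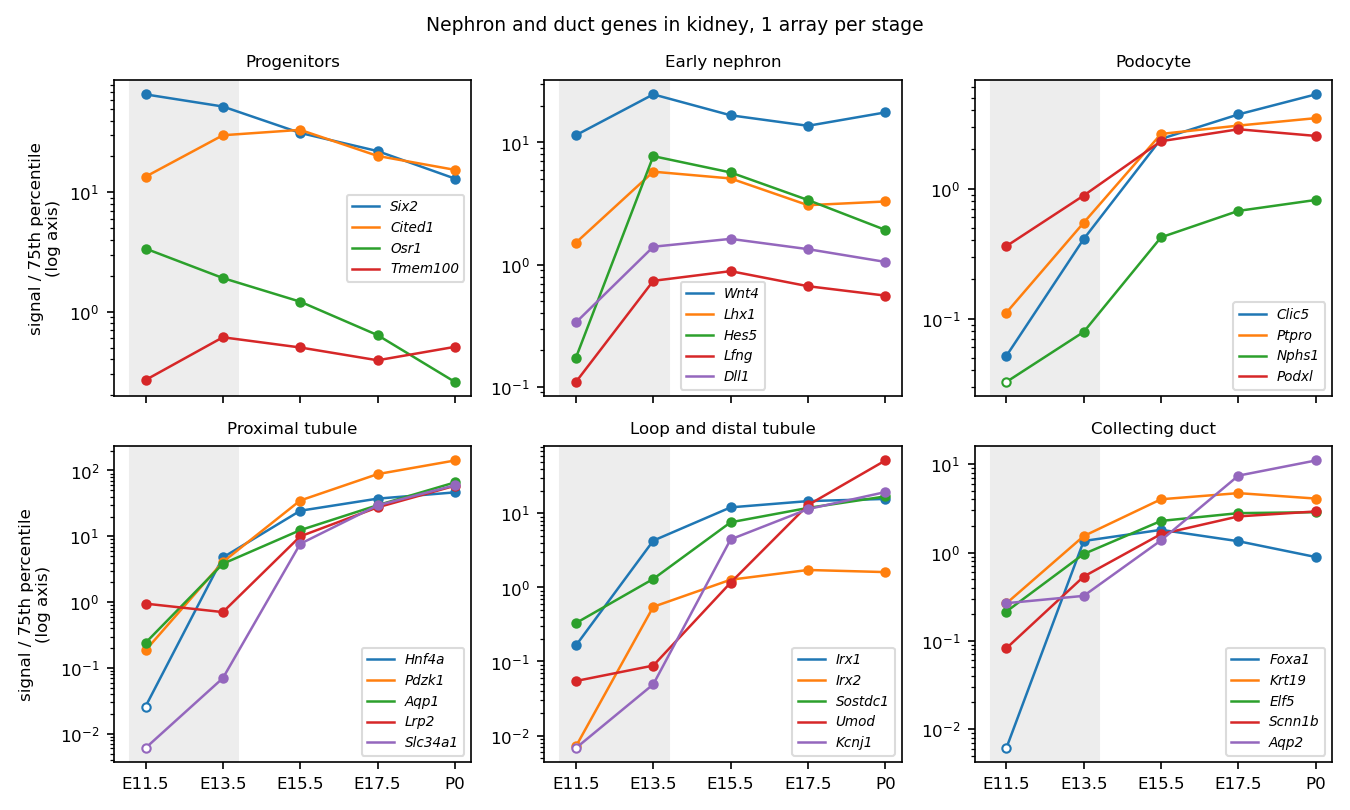
Relative signal (log axis) of nephron and collecting duct genes at the 5 kidney stages, 1 array each; filled points were well above background, open points were not, and the grey band marks E11.5 and E13.5. Wnt4, Lhx1 and Hes5 are highest at E13.5, while Clic5, Pdzk1, Irx1 and Umod are higher at P0 than at E13.5.

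Proximal tubule genes were higher for the most part, with the steepest difference in a transcription factor. Of 21 listed, 18 were measured and Slc3a1, Slc22a12 and Kap were above background on neither array. At least 2-fold higher were 13, at least 2-fold lower was 1, and the median was 1.80, or 1.27 with bounds in place of dim values. That median was 0.36 under normexp background correction, which shrinks differences of dim probes, and 1.05 over genes well above background on both arrays. Hnf4a, the nuclear receptor that proximal tubule identity needs, had a relative signal of 4.78 at E13.5 and was not well above background at E11.5 (0.0260), at least 184-fold higher, the largest bound among the characterised genes. Pdzk1, a scaffold that anchors apical transporters, was 22.03-fold higher (4.08 and 0.185) and its second probe gave 4.02. The water channel Aqp1 was 15.9-fold higher (3.83 and 0.241), as was Amn, which carries cubilin to the cell surface (0.534 and 0.0338, 15.8-fold). The sodium pump subunit Fxyd2 had 4.77 and 0.826, with 2.81 on its second probe.

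Transporters and endocytic receptors of the list ranged widely in signal. Slc7a7, an amino acid transporter, had 2.74 at E13.5 and 3.48 at E11.5, a difference of -0.35. Slc34a1, the phosphate transporter of the brush border, had 0.0703 at E13.5 and was not well above background at E11.5, at least 2.79-fold higher, but a second probe gave 0.32. The glucose transporter Slc5a2 had 0.0719 and was likewise below background at E11.5, at least 2.85-fold higher. The endocytic receptors were not higher: Lrp2, encoding megalin, had 0.707 and 0.951, and Cubn had 0.132 and 0.164. Slc22a8, an organic anion transporter, was well above background at E11.5 alone and at least 3.32-fold lower. At later stages these genes were brighter, with Lrp2 at 9.99, 27.5 and 58.6 and Slc34a1 at 7.69, 29.5 and 59.6 at E15.5, E17.5 and P0.

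In the distal part of the nephron the steepest differences were again those of transcription factors. Of 17 loop and distal tubule genes, 15 were measured (Slc12a1 and Slc12a3 were above background on neither array), 11 were at least 2-fold higher, none was at least 2-fold lower, and the median was 1.38 (1.29 with bounds, 0.49 under normexp). Irx1, a homeobox gene of the intermediate segment, was 26.04-fold higher (4.29 at E13.5 and 0.165 at E11.5). Its neighbour Irx2 had 0.548 and was not well above background at E11.5, at least 21.7-fold higher, and Irx3 was 3.77-fold higher (3.86 and 1.02). Sostdc1, a secreted antagonist of BMP and Wnt signals, had 1.30 and 0.330, and the transcription factor Tfap2b 2.75 and 0.896. Umod, the main secreted protein of the thick ascending limb, had 0.0881 and 0.0545, within 2-fold, and reached 51.9 at P0. Kcnj1, the apical potassium channel of that segment, was at its limit of measurement (0.0492, against a value not well above background) and was at least 1.95-fold higher.

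Ureteric bud genes were listed by compartment. Of 14 tip genes, all measured, 2 were at least 2-fold higher and 1 at least 2-fold lower, with a median of 0.16, whereas of 21 stalk and collecting duct genes, all measured, 15 were at least 2-fold higher and none at least 2-fold lower, with a median of 1.31 (0.78 under normexp). At the tip, the receptor Ret, which answers GDNF, had 1.74 at E13.5 and 2.01 at E11.5, and Wnt11 had 2.77 and 1.69. Emx2 (1.05) and the transporter Slco4c1 (1.80) were higher, and the protease Adamts18 was 3.75-fold lower (0.648 and 2.43), with -2.32 on its second probe. In the stalk, Foxa1, a forkhead factor, had 1.35 and was not well above background at E11.5, at least 53.6-fold higher. Krt19 was 5.79-fold higher (1.54 and 0.266), Elf5 had 0.963 and 0.214, and the sodium channel subunit Scnn1b 0.535 and 0.0823. Cdh16, the kidney-specific cadherin of tubules and ducts, was 4.24-fold higher (32.4 and 7.65). Wnt9b, the bud signal that induces nephrons, differed by 0.11, Calb1 by -0.34 and the water channel Aqp2 by 0.28, and Aqp2 reached 11.04 at P0.

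Stromal genes were listed by maturity. Of 15 cortical stromal progenitor genes, 3 were at least 2-fold higher, 1 at least 2-fold lower and the median was -0.12. Foxd1, the transcription factor that defines these progenitors, had 8.66 at E13.5 and 13.9 at E11.5 (-0.68), and Meis1 (-0.81) and Crabp1 (-0.50) also stayed within 2-fold. Smoc2, a matrix calcium-binding protein, was 4.88-fold higher (19.3 and 3.94), and the atypical cadherin Fat4 was lower (1.16 and 2.68). Ecm1, a secreted matrix protein, was higher as well (22.3 and 10.04), with 1.18 on its second probe. Among 16 genes of differentiated stroma and matrix, all measured, 7 were at least 2-fold higher, none was lower in value, and the median was 0.82. Ogn, a small matrix proteoglycan, was 33.2-fold higher (2.69 and 0.0810). Penk, an opioid precursor expressed by medullary stroma, was 16.7-fold higher (13.48 and 0.808), and Dcn and Postn differed by 1.62 and 1.61, while the fibrillar collagens Col1a1 (0.23), Col1a2 (0.12) and Col3a1 (0.22) differed little.

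Vessels, muscle and basement membrane differed less. Of 17 endothelial genes, 2 were at least 2-fold higher (Tek at 1.096 and Cldn5 at 1.05), none was at least 2-fold lower, and the median was 0.65. Of 15 basement membrane chains measured, 3 were higher past 2-fold, Lamb3 (at least 4.73-fold) and Col4a4 among them, and the median was 0.50. Of 11 smooth muscle, pericyte and renin cell genes measured, 5 were higher in value and 6 lower, with a median of -0.17. Past 2-fold, Acta2, smooth muscle actin, was higher (3.94 and 1.11) and Des, encoding desmin, lower (1.14 and 3.26). The further smooth muscle genes Tagln (-0.17), Cnn1 (-0.94) and Actg2 (-0.53) were lower within 2-fold. Renin itself (Ren1) had 0.140 and 0.129, and 5.86 at E17.5.

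Proliferation, timing and positional genes were measured as well. No cell cycle gene of 18 passed 2-fold either way, and the median was 0.43 (0.25 under quantile normalization), with Mki67 at -0.01, Top2a at 0.16 and Cdk1 at 0.74. Among 12 Lin28 and oncofetal timing genes, 3 were at least 2-fold lower and 1 higher, with a median of -0.29 that became 0.01 when arrays were scaled to their medians. Lin28b, which blocks maturation of let-7, was 2.21-fold lower (2.25 at E13.5 and 4.97 at E11.5). Hmga2, a target of let-7, was 2.41-fold lower (31.2 and 75.1) and Trim71 was 4.12-fold lower (0.446 and 1.84). Further probes of Hmga2 (-0.68) and Trim71 (-0.70) stayed within 2-fold, and that of Lin28b gave -1.77. Dlk1, an imprinted growth regulator, was the member that was higher (40.2 and 19.7). Of 13 posterior Hox genes, 5 were at least 2-fold lower, none was at least 2-fold higher, and the median was -0.74. The 5 were Hoxa13 (at least 6.91-fold), Hoxd13 (9.30-fold, 0.114 and 1.06), Hoxd12 (-1.43), Hoxc11 (-1.38) and Hoxd11 (-1.17, but -0.28 on another probe). Hoxa11, required with its paralogs for the kidney to form, differed by -0.36. Hypoxia and glycolysis genes stayed within 2-fold except for Adm (1.61) and Egln3 (2.06), which were higher, of 14.

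Neural genes were lower as a group. Of 15 neuron and neural crest genes, 14 were measured (Prph was above background on neither array), 11 were at least 2-fold lower, none was at least 2-fold higher, and the median was -1.84 (-1.64 with bounds, -1.09 under normexp). Phox2a, a regulator of autonomic neurons, had 0.118 at E13.5 and 1.07 at E11.5, the noradrenaline-synthesising enzyme Dbh 0.0794 and 0.828, and the glial regulator Sox10 0.0580 and 0.240. The neuronal genes Tubb3 (-1.95) and Nefm (-1.55) were lower too, whereas Elavl4 (0.06) and Th (-0.09) did not pass 2-fold. A further 3 neural genes came from the steepest differences downward: Insm1 (-3.40), a factor of neuroendocrine cells, Gfra3 (1.07 and 9.91), the receptor of artemin, and Tlx2, which autonomic neurons express (at least 23.8-fold lower). In whole tissue, fewer cells of a type and less RNA per cell cannot be told apart.

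Blood RNA differed by globin. All 4 embryonic globin genes listed were measured, 2 were at least 2-fold lower, none was higher, and the median was -1.13, or -1.96 over those well above background on both arrays. Of these, Hbb-bh1 had 6.57 (E13.5) and 61.4 (E11.5), a 9.36-fold difference, and Hba-x had 18.8 and 72.9. Another, Hbb-y, had 441 and 469, and then 18.7, 0.452 and 0.0346 at E15.5, E17.5 and P0. The adult globins were higher: Hbb-bt had 281 and 52.3, Hbb-b2 117 and 16.5, Hbb-b1 17.3 and 3.03. Between organoid replicates, the SD of a single array was 1.85 to 2.29 for the same genes. The differences here (2.43 to 2.82) are between 2 arrays, which vary more than 1 array does. Organoids are not fresh kidneys, so that SD does not measure the spread between kidneys. The globin copies are also near-identical, so single genes are uncertain. Hba-a1 differed by 0.92 and Hba-a2 by 0.38. Of the 14 genes of the adult red cell list, 3 were higher and 4 lower past 2-fold, the lower ones including the erythroid regulators Klf1 (-1.50) and Gata1 (-1.41) and the membrane protein Slc4a1 (-1.31). No macrophage gene of 13 passed 2-fold, but 10 were lower in value and 3 higher. Their median was -0.49, or -0.19 when arrays were scaled to their medians, with Csf1r at -0.49 and Cx3cr1 at -0.83.

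**Figure D5:**
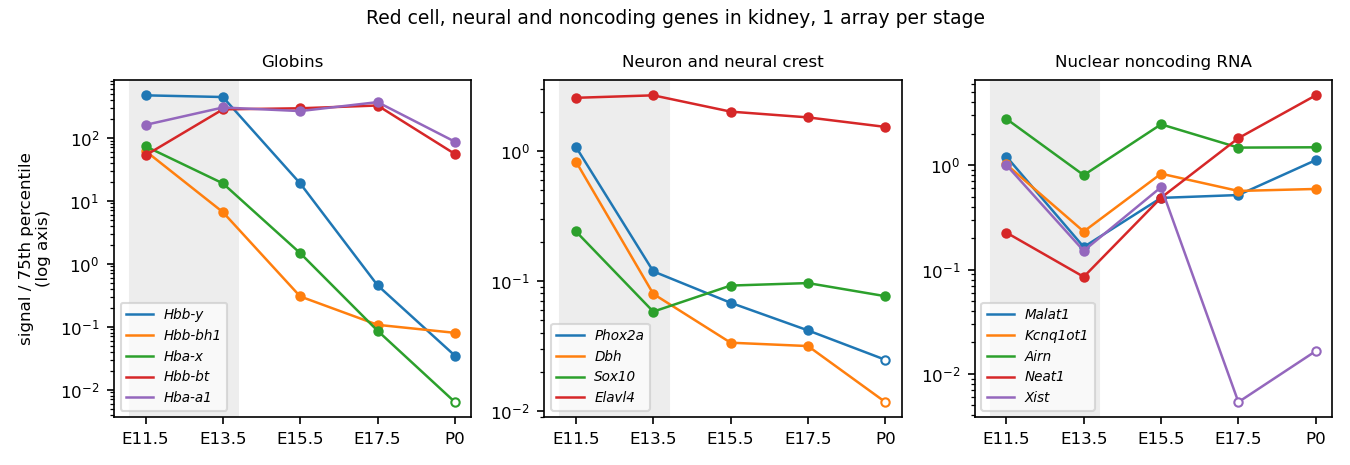
Relative signal (log axis) of globins, neural genes and noncoding RNAs at the 5 kidney stages, 1 array each; filled points were well above background, open points were not, and the grey band marks E11.5 and E13.5. Hbb-bh1 and Hba-x are lower at each later stage, Phox2a and Dbh are lower at E13.5 than at E11.5, and Malat1, Kcnq1ot1, Airn and Neat1 are lowest at E13.5.

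Markers of tissues beside the kidney were mostly low. Tbx18, a factor of ureter mesenchyme, was 3.78-fold lower (0.520 at E13.5 and 1.96 at E11.5), the urothelial genes Upk1b and Upk2 were above background on neither array, and of the 12 ureter genes measured 2 were higher and 3 lower past 2-fold. Of 13 adrenal and gonad genes, 9 were measured, none was higher past 2-fold and 2 were lower, Cyp11b1 (at least 1.37-fold) and Hsd3b1 (at least 2.14-fold), both well above background at E11.5 alone. The steroid enzyme Cyp17a1 had 7.10 and 7.12, and Nr5a1 had 0.258 and 0.346. Of 11 liver genes, 6 were above background on neither array, Alb, Apoa1 and Apob among them, and Afp (at least 7.56-fold) and Serpina1a (1.41 and 0.0902) were higher. Of 11 skeletal muscle genes, Myog and Myf5 were above background on neither array, and Acta1 (1.94) and Myl1 (at least 2.60-fold) were higher. Among immediate early and heat shock genes, which follow handling of tissue, 9 of 11 were measured and Hspa1a alone passed 2-fold (1.01). Xist, the RNA of the inactive X chromosome, had 0.151 and 1.004, while the Y-linked gene Ddx3y had 1.80 and 1.64. The part of these tissues, of handling and of the sex of the embryos in the differences above was not tested.

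The steepest differences over all characterised genes were taken by rule, whether or not a list held the gene. Fxyd4, a regulator of the sodium pump in collecting duct, had 7.42 at E13.5 and 0.150 at E11.5, 49.6-fold higher and the largest difference among characterised genes measured on both arrays. Habp2 (4.54) and Cpb2 (4.51), which encode a circulating protease and a carboxypeptidase, S100g (4.23), a calcium-binding protein of the distal tubule, and Igfbp6 (4.10), a binding protein of insulin-like growth factor 2, were also among the 10 highest. Hsd3b4 (at least 42.1-fold), R3hdml (at least 41.1-fold) and Spink1 (at least 38.5-fold) were measured at E13.5 alone. Hsd3b4 then had 23.7, 82.0 and 136 at E15.5, E17.5 and P0.

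Among the steepest differences downward was Gdf5, a growth factor of the BMP family known from joint formation, with 0.0979 at E13.5 and 1.86 at E11.5 (19.01-fold) and -2.27 on its second probe. Mamdc2 (-3.26) and Smoc1 (-3.22), both extracellular proteins, and the noncoding RNA Dnm3os (-3.45) were in the same set. Those measured at E11.5 alone included Hoxb1 (at least 16.9-fold lower), Cd8b1 (at least 31.9-fold) and Cyct (at least 16.03-fold), the cytochrome c of testis. Zfp979, a zinc finger gene, was at least 79.9-fold lower, but its signal alternated between stages, with 2.41, 0.0299, 1.35, 0.0163 and 2.34 in order of stage. Cyct alternated too, with 0.483, 0.0211, 0.0922, 0.00661 and 0.153. It was well above background at E11.5, E15.5 and P0 but not at E13.5 or E17.5.

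The step was set beside the 3 later ones, which share arrays with it or with each other. From E13.5 to E15.5, 11.1% of genes passed 2-fold (1853 higher and 342 lower), and the last 2 steps had 7.85% and 7.84%. A 2-fold difference between 2 single arrays has no error of its own, so the order of these shares was not tested.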

How the data were processed

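RNA was measured on 12 one-colour Agilent arrays, of which the E13.5 and E11.5 kidney arrays are compared here. Per the file headers, the spot intensity was background-subtracted and corrected by Feature Extraction 11.5.1.1, whereas the submitters' processing notes name version 10.7.3.1. The authors also deposited a table of log2 values scaled by array, used as an alternative. It differed from the log2 processed signal by 1 constant per array.

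The log2 of the processed signal was averaged over the spots of a probe without outlier spots (125 at E13.5 and 206 at E11.5; none was saturated), and each array's 75th percentile (236 and 224 units) was subtracted. Where several probes shared a symbol, the one brightest on average across the series was kept. Symbols came from RefSeq accessions (28026 probes), symbols (3418) and synonyms (295), 5037 probes kept the file's name and 18905 had none. On the E13.5 array 56.1% of probes were well above background and on the E11.5 array 59.8%. Both arrays lay on 1 slide. With 1 array per stage, array number limits the precision and no test was made.

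The members, lists, motifs and rule for named genes were chosen with earlier results of these data known. The rule took the 10 largest differences each way among characterised genes measured on both arrays, and 6 each way by bound. For each list it took the first 2 members and up to 4 past 2-fold each way. That number was 6 for progenitor, early nephron, podocyte and ureteric lists. Not every gene taken is named in the text, and other members are named for their role. Some genes that met the rule, and 1 motif searched, are not reported here. Alternatives were normexp (limma 3.58.1, offset 50), quantile and median scaling, the deposited table, the mean of probes, other filters and folds of 1.5 and 4. Protein-coding genes alone and bounds for dim values were added after seeing the data. The scaling and the 2-fold cut were tested on simulated data, and the background filter, the choice of probe, the bounds and the alternatives were not. R 4.3.3, Python 3.11.15, numpy 2.4.6, pandas 2.3.3 and matplotlib 3.10.9 were used.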

Additional observations from a re-analysis of the deposited data

How the results depend on the processing

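No paired analysis was possible because each kidney stage has 1 array and no result comes from a test. Against 1135 genes at least 2-fold higher at E13.5 and 1461 lower, normexp background correction left 362 and 315, and a requirement that both arrays be well above background left 748 and 757. Scaling to the median, which moved the median difference of all genes by 0.30 to 0.37, gave 1783 higher genes and 1080 lower. Protein-coding genes alone, an alternative chosen after seeing the data, gave 998 higher and 701 lower. Bounds in place of dim values, also added after seeing the data, gave 1026 higher and 1110 lower. At a fold of 1.5, 2295 genes were higher and 2631 lower, and at a fold of 4, 405 and 575. The median difference of 0.07 became 0.040 under normexp, 0.040 under quantile normalization and -0.037 with the 75th percentile taken over probes well above background on all arrays. Through the alternatives, 99 genes past 2-fold that the rule for named genes had taken were followed. Of these, 60 stayed past 2-fold in the same direction in every alternative that kept them. None of the 99 changed sign. Under scaling to the median the list medians of nephron progenitors (0.25), cortical stroma (0.18), smooth muscle (0.13), Lin28 (0.01), hypoxia (0.18), sex-linked genes (0.18), ureter (0.21) and skeletal muscle (0.24) turned positive. Those of sex-linked genes (0.074) and skeletal muscle (0.049) did so under quantile normalization too, that of sex-linked genes (0.0093) with both arrays above background, and that of ureter (0.041) with the mean of probes. With 1 array per stage and signals near 0.03 at background, differences of dim genes are bounds only.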

Other observations

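The genes in this section were chosen after their values had been seen, and they stand for no group. Several that are known from the brush border of the proximal tubule were among those higher at E13.5. The peptidases Enpep (0.955 at E13.5 and 0.0689 at E11.5), Dpp4 (1.72 and 0.226), Ggt1 (0.378 and 0.0514) and Xpnpep2 (0.593 and 0.0749) were all past 4-fold. Mep1a was at least 13.01-fold and Vil1, the microvillar actin bundler, at least 21.4-fold higher. The folate receptor Folr1 had 2.41 and 0.145, with 2.39 against 4.05 as the log2 differences of its second and first probes. The epithelial adhesion genes Cdh1 and Epcam were higher as well, with Cdh1 at 3.41 and 1.05 and Epcam at 2.12 and 0.796. Of genes known from endothelium, Gja5 had 2.55 and 0.468, Sema3g 2.77 and 0.604, Esm1 1.74 and 0.372, and the lipid chaperone Fabp4 12.04 and 0.724.

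The transcription factors picked here were among those lower at E13.5. Tbx1 had 0.278 and 1.84, Pitx1 0.0513 and 0.350, and Twist1 1.08 and 3.01, while Isl1 (at least 13.4-fold lower), Evx1 (at least 10.5-fold) and Foxf2 (at least 4.15-fold) were measured at E11.5 alone.

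Histone H4 genes alternated between stages. In order of stage, with E11.5 first and P0 last, H4c4 had 18.1, 186, 17.1, 261 and 8.34, H4c14 had 18.96, 97.6, 18.7, 132 and 9.25, and H4c12 had 22.1, 105, 21.8, 133 and 10.6. Near-identical H4 copies share sequence, and the second probe of H4c14 gave 0.54 for E13.5 minus E11.5, against 2.36 on the first. Several protein-coding genes with no common role moved like the noncoding RNAs: Gcm1 had 42.7, 11.8, 29.0, 19.4 and 17.03 over the same 5 stages, Pigr 48.7, 15.1, 33.8, 24.4 and 23.5, and Rhox8 43.98, 12.01, 33.1, 19.3 and 18.8.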
